A study of Mus musculus with 2 samples.

Results

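The genes described here are 9 chemokines and receptors of the recruitment, retention and upkeep of monocytes and neutrophils, of 32285 genes in the count tables. They were listed by name: the 4 ligands Ccl2, Ccl7, Cxcl2 and Cxcl3, the 3 chemokine receptors Ccr2, Cxcr2 and Cxcr4, and the 2 growth factor receptors Csf3r and Csf1r. Live CD45+ cells, that is cells with the common leukocyte antigen, had been sorted from liver tumors and profiled in droplets by 3′ single-cell RNA sequencing. Each unique molecular identifier (UMI) stands for 1 captured RNA molecule. Hepatocellular carcinoma (HCC) had been induced in male wild-type C57BL/6 J mice aged 6 to 8 weeks by injecting plasmids for human MYC, a guide against Trp53 and sleeping beauty transposase into the tail vein, which gives the Trp53KO/MYCOE model. From day 12 on, all mice were given lenvatinib, a multikinase inhibitor, at 30 mg/kg for 25 days to reach lenvatinib-resistant tumors. Afterwards 1 library came from tumors kept on lenvatinib at 30 mg/kg and 1 from tumors on lenvatinib at 30 mg/kg with palbociclib, a CDK4/6 inhibitor, at 100 mg/kg (combo). The injected plasmids reach hepatocytes, so the leukocytes are those of the wild-type host. How many mice each library holds is not given in the sources used here.

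CCL2 and CCL7 bind CCR2, the receptor that lets classical monocytes leave the bone marrow and enter inflamed or tumor-bearing liver. CXCL2 and CXCL3 bind CXCR2, which draws neutrophils into tissue, while CXCR4 holds neutrophils in the marrow through CXCL12 and is known to come up on aged neutrophils. CSF3R, the receptor of G-CSF, and CSF1R, the receptor of CSF1 and IL-34, sustain the granulocyte and the monocyte-macrophage lineages.

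The ligands sit in gene clusters. In mm10, with GENCODE annotation, Ccl2 (ENSMUSG00000035385) lies at chr11:82035571-82037453 and Ccl7 (ENSMUSG00000035373) at chr11:82045712-82047525, 8.3 kb apart on the plus strand. Cxcl3 (ENSMUSG00000029379) lies at chr5:90786103-90789600 and Cxcl2 (ENSMUSG00000058427) at chr5:90903871-90905938, 114.3 kb apart, also on the plus strand. Cxcr2 (ENSMUSG00000026180) and Cxcr4 (ENSMUSG00000045382) are on chromosome 1, Csf3r (ENSMUSG00000028859) on chromosome 4 and Ccr2 (ENSMUSG00000049103) on chromosome 9. Csf1r is ENSMUSG00000024621.

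Cxcl2 and Cxcl3, both mainly found in neutrophils, share a motif upstream of their start. The pieces below are 140 bases each, from -170 to -31 relative to the RefSeq start (GRCm38.p6), read 5′ to 3′ on the plus strand, at chr5:90903729-90903868 for Cxcl2 and chr5:90785931-90786070 for Cxcl3. Capitals mark GGGAATTTC, the core of a known binding motif of NF-κB, a factor that switches on chemokine genes in inflammation.
Cxcl2: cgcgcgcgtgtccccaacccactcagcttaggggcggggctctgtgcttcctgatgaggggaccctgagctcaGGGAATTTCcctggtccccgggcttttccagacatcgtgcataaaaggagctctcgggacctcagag
Cxcl3: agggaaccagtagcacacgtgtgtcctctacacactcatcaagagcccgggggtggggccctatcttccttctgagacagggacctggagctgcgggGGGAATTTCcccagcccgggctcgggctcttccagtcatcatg
The motif begins 97 bases before the start of Cxcl2 and 73 bases before that of Cxcl3. On either strand it was found in 85 of 32851 promoter windows of the same annotation, or 0.259%, each window running from 250 bases before to 50 bases after a start. The windows of Ccr2, Cxcr2, Cxcr4 and Csf3r held no match. A match is a run of letters and not a measured site.

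Cells with at most 6000 genes and at most 25% mitochondrial UMIs were kept, 14201 under lenvatinib and 11613 under combo, with 95123833 and 90165246 UMIs and medians of 5541 and 5754 per cell. The libraries had 49 cell barcodes in common. Each cell was typed by the UMIs of single genes: Csf1r for monocytes, C1qa for macrophages, Csf3r for neutrophils, Flt3 for dendritic cells, Mcpt8 for basophils, Cd3e for T cells, Cd79a for B cells and Ncr1 for NK cells. Cells with both a lymphoid and a myeloid gate were set apart as mixed (550 and 738), and cells without any gate as ungated (2726 and 1778). Since Csf1r and Csf3r are gates as well as members, their level in monocytes and in neutrophils is fixed by the typing. The absence of Csf1r from T, B and NK cells, and the limit of 1 Csf3r UMI in each of them, are fixed in the same way, because a lymphocyte at the Csf1r or Csf3r minimum counts as mixed.

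Neutrophils numbered 631 under lenvatinib and 1563 under combo, or 4.44% and 13.5% of cells, and monocytes 247 and 876, or 1.74% and 7.54%. Neutrophils were divided by Ptgs2, the inducible cyclooxygenase gene, into 477 and 858 cells with a UMI (Ptgs2+) and 154 and 705 without (Ptgs2-). Other gates held 105 and 59 macrophages, 310 and 321 dendritic cells, 13 and 18 basophils and 6439 and 4560 T cells. Neutrophils were read at different depth, with a median of 2571 UMIs per cell under lenvatinib and 5019 under combo. A Ptgs2 gate of 1 UMI depends on depth: after every cell was thinned to 2000 UMIs, 71.3% of neutrophils under lenvatinib and 42.8% under combo had a Ptgs2 UMI.

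The gates were checked against marker genes other than the gate genes. Of 11 neutrophil markers, 10 were highest in the neutrophil gate under lenvatinib and 11 under combo, and for T cells it was 5 and 6 of 6. Monocytes had 6 and 7 of 9 markers at their highest, dendritic cells 7 of 8 in both libraries and basophils 6 of 6. Of 10 macrophage markers, 6 were highest in the macrophage gate under lenvatinib and 10 under combo. The other 4, the Kupffer cell genes Vsig4, Clec4f, Marco and Timd4, were at 0 there under lenvatinib. Under combo they rested on very few cells, with a UMI of Vsig4, Clec4f and Timd4 each in 1.69% of gated cells and of Marco in 5.08%. Clusters of whole transcriptomes, made without the 9 genes, placed 86 of 105 macrophage-gated cells in the macrophage cluster under lenvatinib but 17 of 59 under combo, where 40 lay in monocyte clusters. The macrophage gate therefore held different cells in the libraries. The monocyte gate differed too, with 159 of 247 cells in monocyte clusters under lenvatinib and 776 of 876 under combo, so monocyte values are also given by clusters. In neutrophil clusters lay 608 of 631 and 1418 of 1563 neutrophil-gated cells.

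Levels are given as CPM, that is UMIs of a gene per 1000000 UMIs of a cell type, with exact Poisson 95% intervals in brackets. There was 1 library per treatment, so intervals cover counting error only, no test of treatment was possible, and treatment cannot be told apart from library. For a rule of size, genes with a mean of at least 20 CPM over the libraries were called when they differed at least 2-fold. Of the members that reached 20 CPM, leaving out the gate gene of the type itself, the rule called 2 of 7 in neutrophils (Ccl2 and Cxcr4), where it called 14.3% of all genes tested, and 1 of 5 in monocytes (Cxcl2), against 4.2% of all genes. It called 2 of 7 in Ptgs2+ neutrophils (12.6% of all genes), 2 of 7 in Ptgs2- neutrophils (17.5%) and 4 of 7 in the unlike macrophage gates (21%). The gate gene Csf3r was also past 2-fold in neutrophils, from which nothing is read. In dendritic cells (2.48%), T cells (1.75%) and NK cells (1.67%), Cxcl2 was the 1 member called of 3.

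**Figure D1:**
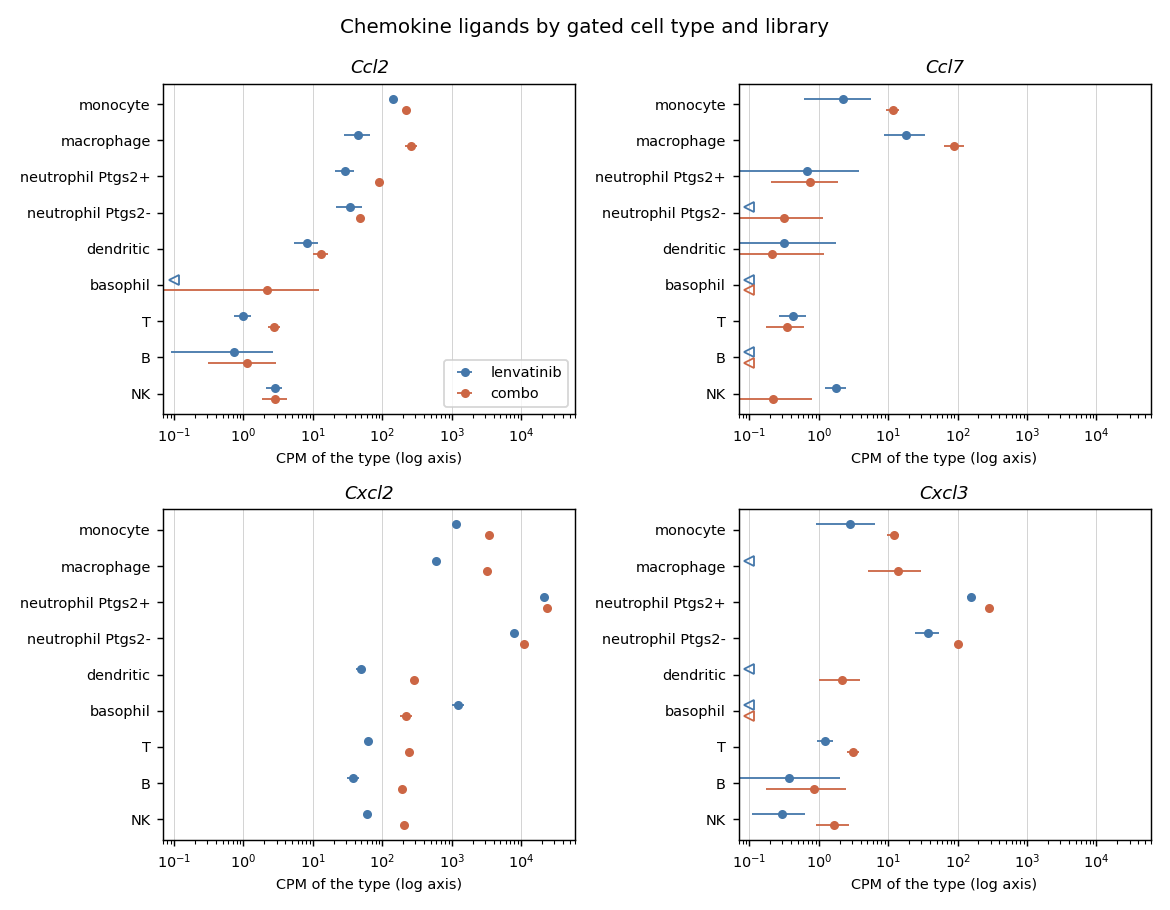
Level of the 4 ligands (CPM, log axis) in each gated type, lenvatinib in blue and combo in orange. Points are sums over all cells of a type, bars are exact Poisson 95% intervals, and open triangles at the left edge stand for 0 UMIs. Cxcl2 and Cxcl3 were highest in neutrophils, and Ccl2 in monocytes and macrophages.

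Neutrophils were the main source of Cxcl2 in both libraries. Under lenvatinib 604 of 631 neutrophils and under combo 1550 of 1563 had a Cxcl2 UMI, and the level over all neutrophils was 17103 CPM (16930 to 17278) and 16832 CPM (16758 to 16907). The ratio of combo to lenvatinib was 0.984, within a range of 0.970 to 0.999 that sets the interval ends against each other. Per cell the picture differed, since the median neutrophil had 45 Cxcl2 UMIs under lenvatinib and 114 under combo, at the different depths given above. Scaled by TMM factors in place of totals, the ratio was 1.36, and by UMIs per cell it was 2.13, so no direction for Cxcl2 per neutrophil held under every scaling.

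Within neutrophils, Cxcl2 followed Ptgs2. Ptgs2+ cells had 21505 CPM of Cxcl2 under lenvatinib and 23902 CPM under combo, and Ptgs2- cells 7911 and 10877 CPM. Ptgs2+ cells stood above Ptgs2- cells in both libraries, and each class was higher under combo, with ratios of 1.11 and 1.37 that stayed above 1 in every alternative. At 2000 UMIs per cell, the share of cells with a Cxcl2 UMI was 98.4% in Ptgs2+ cells of both libraries, and 84.7% and 94.7% in Ptgs2- cells.

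Cxcl2 was higher under combo in monocytes, with a ratio by gates below those of the types described next as background. Their level was 1134 CPM (1085 to 1184) under lenvatinib and 3381 CPM (3342 to 3420) under combo, a ratio of 2.98 (2.82 to 3.15). At equal depth 38.4% of monocytes under lenvatinib and 79.8% under combo had a Cxcl2 UMI. The signal was also spread over more cells under combo: the monocytes with most Cxcl2, 25 of 247 and 88 of 876, held 78.6% and 51.9% of the UMIs. In monocyte clusters the levels were 844 and 3313 CPM, a ratio of 3.93, and with called doublets removed the ratio was 3.21. Monocytes with and without Ly6c2, the marker of classical monocytes, had 952 and 1509 CPM under lenvatinib and 3120 and 4525 CPM under combo.

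Low Cxcl2 levels in lymphocytes moved in the same direction. T cells, which are not known to make it, had 61.9 CPM under lenvatinib and 243 CPM under combo, and at 2000 UMIs 7.15% and 26.1% of them had a UMI. B, NK and dendritic cells lay close by, between 6.04% and 9.68% under lenvatinib and between 23.4% and 28.1% under combo. These shares are used as the background for monocytes and neutrophils. Whether they hold expression in these cells or RNA from other cells was not tested. S100a8, a neutrophil gene, was also higher under combo in T cells, at 583 and 3309 CPM, and in NK cells, at 479 and 6398 CPM. B cells had 165 and 5768 CPM, dendritic cells 114 and 2207 CPM and neutrophils 54936 and 115309 CPM. In B, dendritic, NK and T cells its ratios were 34.9, 19.4, 13.4 and 5.67, beside 5.13, 5.81, 3.44 and 3.93 for Cxcl2. Shares in monocytes and neutrophils were above this background in both libraries, whereas its part in the monocyte ratio was not tested. Over the whole library Cxcl2 had 643 CPM under lenvatinib and 3350 CPM under combo. Neutrophils held 60.9% of its UMIs under lenvatinib and 65.0% under combo, and monocytes 3.32% and 9.53%.

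Cxcl3 had far fewer UMIs than Cxcl2, 492 under lenvatinib and 2920 under combo, and lay in a minority of the same neutrophils. Neutrophils had 119 CPM (105 to 134) under lenvatinib and 187 CPM (179 to 195) under combo, a ratio of 1.58 (1.34 to 1.86). Both classes were higher under combo, Ptgs2+ cells with 158 and 288 CPM and Ptgs2- cells with 36.9 and 102 CPM. A UMI was found in 74 of 631 neutrophils under lenvatinib and in 396 of 1563 under combo. At equal depth the shares were 10.2% (7.65 to 13.2) and 16.7% (14.8 to 18.7), against 0.0984% and 0.472% of T cells.

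Cxcl3-positive neutrophils also had Cxcl2. At 2000 UMIs per cell, all 50 Cxcl3-positive neutrophils under lenvatinib and all 251 under combo had a Cxcl2 UMI. Only 23 of 491 and 49 of 1504 neutrophils lacked Cxcl2, too few to say more. Neutrophils held 52.4% of Cxcl3 UMIs under lenvatinib and 74.7% under combo, or 80.1% and 89.1% when cells were typed by clusters.

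**Figure D2:**
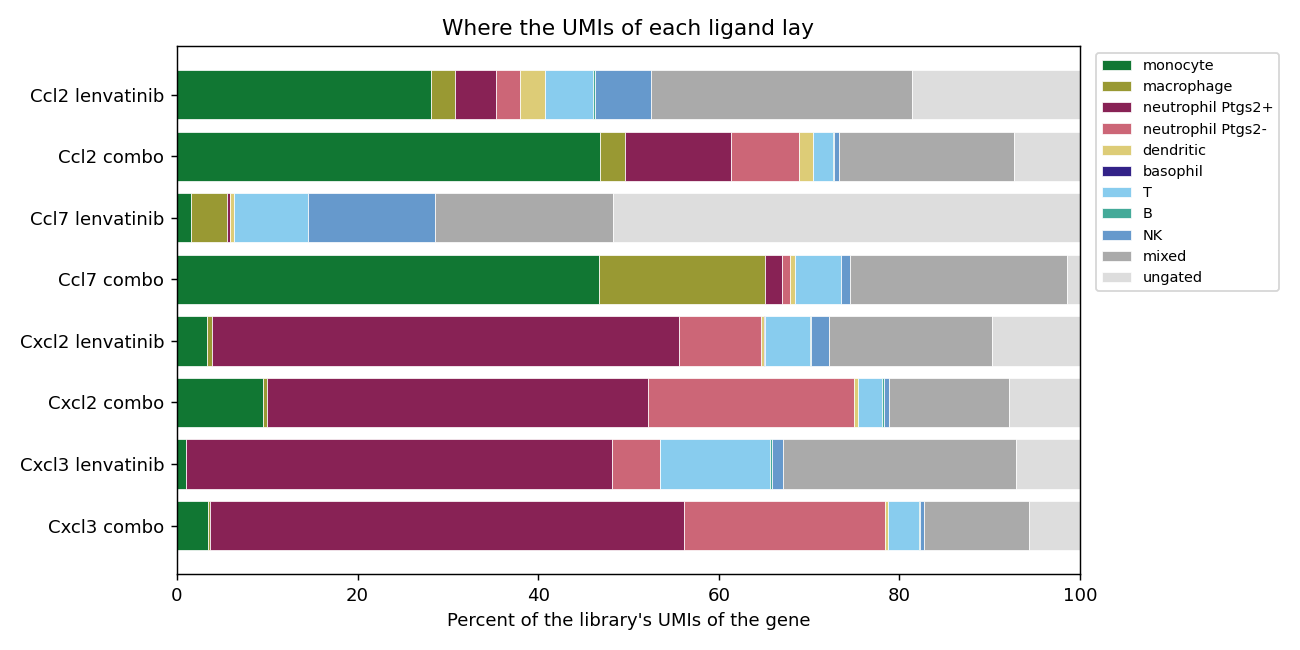
Share of each ligand's UMIs (percent of the library's UMIs of that gene) held by each gated type, 1 bar per ligand and library. Neutrophils held most of Cxcl2 and Cxcl3 in both libraries, and 51.8% of Ccl7 lay in ungated cells under lenvatinib against 1.42% under combo.

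Ccl2 was highest in monocytes under lenvatinib, and in macrophage-gated cells and monocytes, which overlapped, under combo. Monocytes had 144 CPM (127 to 163) under lenvatinib and 222 CPM (212 to 232) under combo, a ratio of 1.54 (1.30 to 1.83) that stayed above 1 in every alternative. Ccl2 was carried by a minority, with a UMI in 56 of 247 and 312 of 876 monocytes, and at equal depth in 17.2% (12.3 to 23.1) and 19.2% (16.5 to 22.1), which overlap. Monocytes with Ly6c2 were higher, at 168 and 243 CPM, than those without, at 93.9 and 129 CPM. Of all Ccl2 UMIs, 917 under lenvatinib and 4033 under combo, the monocyte gate held 28.1% and 46.8%, mixed cells 28.9% and 19.4% and ungated cells 18.6% and 7.29%. Monocyte clusters held 54.0% and 79.5%, with levels of 203 and 253 CPM.

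Macrophage-gated and neutrophil-gated cells also gave Ccl2, with limits. In macrophages it was 44.1 CPM under lenvatinib and 261 CPM under combo, but 24 and 114 UMIs lay behind these, and 2 of 59 cells held 62.3% of the combo UMIs. With gate minimums raised by 1 UMI the macrophage ratio went from 5.93 to 1.13. The macrophage cluster had 134 CPM under lenvatinib, and none of its 25 combo cells had a Ccl2 UMI. Neutrophils had 30.3 and 66.5 CPM, and the neutrophil clusters 11.5 and 34.9 CPM, while 104 of 1563 neutrophil-gated combo cells lay in monocyte clusters. The lenvatinib value rests on 66 UMIs in 12 neutrophils, and 2 cells held 57.6% of them. The ratio was 3.11 (2.10 to 4.73) in Ptgs2+ cells and 1.40 (0.838 to 2.45) in Ptgs2- cells. In neutrophils with granule genes, described with Cxcr4, it was 0.549 (0.196 to 1.82) on 7 and 47 UMIs, and 3.52 in those without. At equal depth 0.815% of neutrophils under lenvatinib and 5.52% under combo had a Ccl2 UMI, against 0.311% and 0.450% of T cells.

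Ccl7 was the rarest ligand, with 255 UMIs in 48 cells under lenvatinib and 212 UMIs in 52 cells under combo, and its sources differed between the libraries. Under combo monocytes held 46.7% and macrophage-gated cells 18.4% of its UMIs, and by clusters monocytes held 191 UMIs, or 90.1%. Under lenvatinib the monocyte gate held 4 UMIs and the macrophage gate 10, and 51.8% of UMIs lay in ungated cells. By clusters the lenvatinib UMIs lay mostly in a cluster with Mcpt8, Cpa3, Mcpt4 and Cma1 among its leading genes, which held 163 (63.9%), and in the macrophage cluster, which held 56 (22.0%). A further set was chosen after these values had been seen. It took 28 cells of any gate with Cpa3 and Fcer1a but without the Mcpt8 gate, genes of mast cells and basophils, and held 164 of the 255 Ccl7 UMIs (64.3%, 58.1 to 70.2) and 125 of the 917 Ccl2 UMIs.

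Those 28 cells had high levels of proteases known from connective tissue mast cells, namely 18009 CPM of the chymase Cma1, 18314 CPM of Mcpt4, and 9749 CPM of the tryptase Tpsb2. Kit, the stem cell factor receptor gene, had 618 CPM. Their Ccl7 level was 1220 CPM (1041 to 1422) and their Ccl2 level 930 CPM (774 to 1108), from 10 and 11 cells with a UMI. Under combo 3 cells met the same rule, but they had no Cma1, Mcpt4 or Tpsb2 UMI and so differed from the 28 cells. None of the 212 combo Ccl7 UMIs lay in them, which allows a share of up to 1.72% by an exact interval. The values rest on very few cells, and a single lenvatinib cell held 70 of the 255 UMIs.

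**Figure D3:**
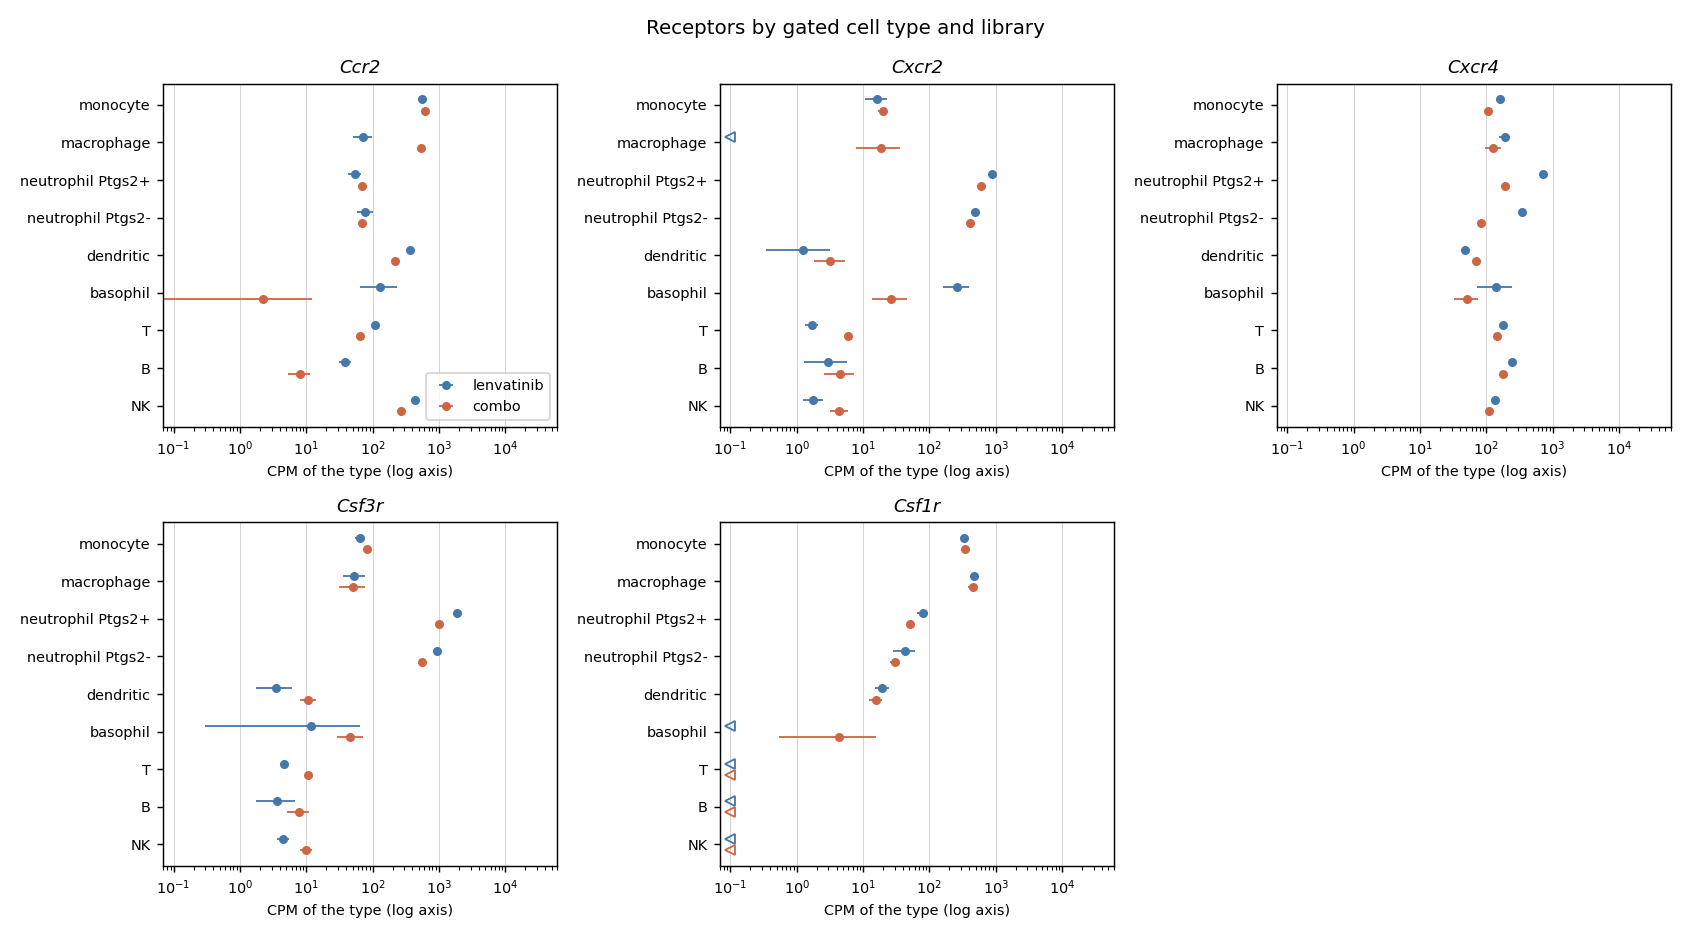
Level of the 5 receptors (CPM, log axis) in each gated type, lenvatinib in blue and combo in orange, with exact Poisson 95% intervals and open triangles for 0 UMIs. Cxcr4 lay between 48.3 and 243 CPM in every type except neutrophils, which had 708 and 352 CPM under lenvatinib and 193 and 84.8 CPM under combo.

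Ccr2, the receptor of CCL2 and CCL7, was highest in monocytes under lenvatinib, and in monocytes and macrophage-gated cells, which overlapped, under combo. Its monocyte level was alike in both libraries, and NK and dendritic cells also bore it, as given below. Monocytes had 565 CPM (531 to 601) under lenvatinib and 607 CPM (591 to 624) under combo, a ratio of 1.07 (0.982 to 1.17) whose range includes 1, and monocyte clusters had 563 and 613 CPM. At equal depth 54.2% and 55.5% of them had a UMI. Monocytes with Ly6c2 had 629 and 644 CPM, and those without 435 and 443 CPM, so Ly6c2 and Ccr2 went together within the gate in both libraries. Ly6c2 was not particular to monocytes, however. Under lenvatinib it had 684 CPM in them and 1313 CPM in dendritic cells, and under combo 642 CPM in them and 742 CPM in T cells.

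Ccr2 was lower under combo in the lymphoid and dendritic gates. NK cells had 441 CPM (431 to 450) under lenvatinib and 273 CPM (262 to 284) under combo, a ratio of 0.620. T cells had 107 and 64.8 CPM, a ratio of 0.605, and dendritic cells 366 and 218 CPM, a ratio of 0.597. None of these 3 ratios passed the 2-fold rule. B cells had 38.6 and 7.95 CPM, a ratio of 0.206 (0.113 to 0.363) on 105 and 28 UMIs, and 53.1 and 28.6 CPM by clusters. At equal depth 51.9% of NK cells under lenvatinib and 36.1% under combo had a Ccr2 UMI, and the intervals (49.9 to 53.9 and 33.3 to 39.1) did not overlap. Among T cells the ratio was alike with Cd8a alone (0.566), with Cd4 alone (0.556) and with neither (0.610). Among dendritic cells it was 0.616 (0.485 to 0.781) with the cDC1 genes Xcr1 or Clec9a, on 47 and 45 cells. With Cd209a it was 0.557 (0.386 to 0.799), on 30 and 21 cells. With the plasmacytoid gene Siglech it was 1.12 (0.745 to 1.70), on 60 and 75 cells with 71 and 134 UMIs, a range that overlaps the others.

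The bearers of Ccr2 UMIs differed between the libraries, a share that follows cell numbers as well as levels. NK cells held 44.4% of them under lenvatinib and 16.5% under combo, T cells 26.0% and 13.6%, and monocytes 5.04% and 34.2%. In the macrophage gate Ccr2 was 71.6 CPM under lenvatinib and 545 CPM under combo, where 40 of 59 cells lay in monocyte clusters as given above. In the macrophage cluster there were 31 UMIs of Ccr2 under lenvatinib and none in 25 cells under combo. Neutrophils had 61.6 and 69.8 CPM by gates but 43.2 and 14.3 CPM by clusters, so no direction held there.

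Cxcr2, the receptor of CXCL2 and CXCL3, lay mainly in neutrophils, which held 66.9% and 71.3% of its UMIs by gates and 90.7% and 93.6% by clusters. Neutrophils had 756 CPM (720 to 793) under lenvatinib and 494 CPM (482 to 507) under combo. The ratio was 0.654 (0.607 to 0.704) by CPM, 0.842 by clusters, 0.906 with TMM factors and 1.41 per cell. Over all neutrophils, a lower level under combo thus held by composition and not by UMIs per cell. In Ptgs2- cells it did not hold by clusters, at 282 CPM under lenvatinib and 348 CPM under combo. At 2000 UMIs per cell, 71.3% (67.1 to 75.3) and 63.4% (60.9 to 65.9) of neutrophils had a Cxcr2 UMI, against 0.393% and 0.787% of T cells. Within each Ptgs2 class the intervals of the libraries overlapped. Ptgs2+ cells were higher than Ptgs2- cells in both libraries, at 887 and 482 CPM under lenvatinib and 591 and 413 CPM under combo. Neutrophils with granule genes, described with Cxcr4, went the other way, with 242 and 345 CPM, against 894 and 635 CPM in those without.

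Cxcr4, the marrow retention receptor, was lower under combo in neutrophils by every scaling. They had 593 CPM (561 to 626) under lenvatinib and 134 CPM (128 to 141) under combo, a ratio of 0.227 (0.204 to 0.251). Across all alternatives the ratio lay below 0.5, at 0.265 by clusters, 0.314 with TMM factors and 0.490 per cell. The median log2 ratio over all genes tested in neutrophils was -0.40, so a gene with no shift relative to the rest was already lower by CPM. At equal depth 59.3% (54.8 to 63.7) of neutrophils under lenvatinib and 27.7% (25.5 to 30.1) under combo had a Cxcr4 UMI, while T cells had 28.9% and 26.0%.

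The difference in Cxcr4 was present in every division of the neutrophils that was made. Ptgs2+ cells had 708 and 193 CPM, a ratio of 0.272, and Ptgs2- cells 352 and 84.8 CPM, a ratio of 0.241. Neutrophils with at least 5 UMIs of granule genes, which are made in the marrow before release, numbered 41 under lenvatinib and 397 under combo, and had 182 and 50.8 CPM of Cxcr4. Those without had 704 and 213 CPM, a ratio of 0.303. By CPM, Cxcr4 was thus lower in granule-rich cells in each library. Per cell, granule-rich and other neutrophils had 2.05 and 2.04 Cxcr4 UMIs under lenvatinib, and 0.723 and 1.10 under combo. Under lenvatinib the difference between the 2 classes therefore did not hold per cell, and a minimum of 5 granule UMIs depends on depth. Both classes were lower under combo by CPM and per cell.

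Cxcr4 and Cxcr2 were not exclusive of each other. At equal depth, 60.6% of Cxcr2-positive and 56.0% of Cxcr2-negative neutrophils under lenvatinib had a Cxcr4 UMI, and 30.9% and 22.2% under combo. Cxcr4-positive cells were more frequent with Ptgs2, at 65.1% against 44.7% under lenvatinib and 37.8% against 20.2% under combo.

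Outside neutrophils Cxcr4 differed less. T cells had 181 CPM (178 to 185) under lenvatinib and 148 CPM (143 to 152) under combo, B cells 243 and 177 CPM, NK cells 133 and 111 CPM and monocytes 161 and 106 CPM. Dendritic cells were the exception in direction by gates, with 48.3 and 70.6 CPM. In dendritic clusters the levels overlapped, at 77.3 CPM (71.0 to 84.0) and 80.5 CPM (74.2 to 87.2). Under lenvatinib the order of levels ran from Ptgs2+ through Ptgs2- neutrophils to B cells, macrophages and T cells, and macrophages overlapped with both B and T cells. Under combo Ptgs2+ neutrophils, at 193 CPM (181 to 205), overlapped with B cells at 177 CPM (164 to 192). T cells, by their number, held 51.6% and 40.8% of all Cxcr4 UMIs.

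**Figure D4:**
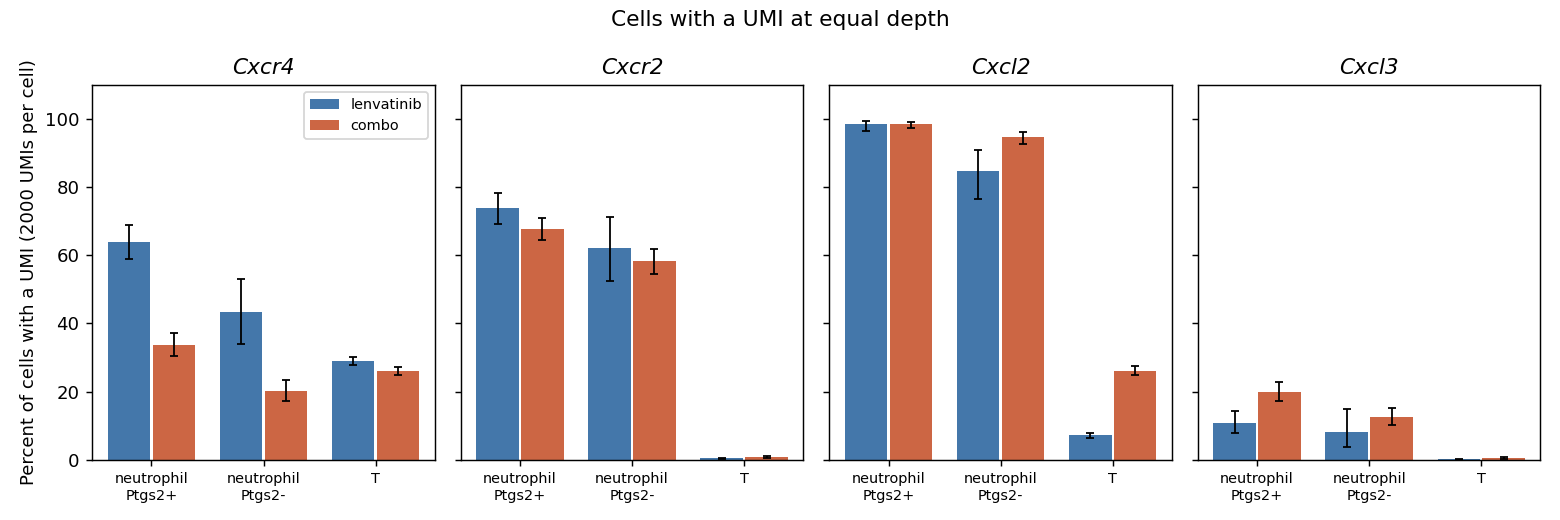
Percent of cells with a UMI after thinning every cell to 2000 UMIs, for Cxcr4, Cxcr2, Cxcl2 and Cxcl3 in Ptgs2+ neutrophils, Ptgs2- neutrophils and T cells, lenvatinib in blue and combo in orange. Bars start at 0 and error bars are exact binomial 95% intervals. Cxcr4 was lower under combo in both neutrophil classes, and Cxcr2 intervals overlapped in each class.

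Csf3r and Csf1r define gates, and their values are given only as a description. Csf3r had 1567 CPM in neutrophils under lenvatinib and 769 CPM under combo, and a minimum of 2 UMIs selects a higher level in shallower cells. Taken from clusters it had 989 and 589 CPM in neutrophils, and 86.4 and 103 CPM in monocyte clusters. Csf1r had 328 and 347 CPM in the monocyte gate and 476 and 447 CPM in the macrophage gate, which was chosen on C1qa. In monocyte clusters Csf1r had 259 and 285 CPM, and in the neutrophil clusters 44.4 and 27.8 CPM.

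**Figure D5:**
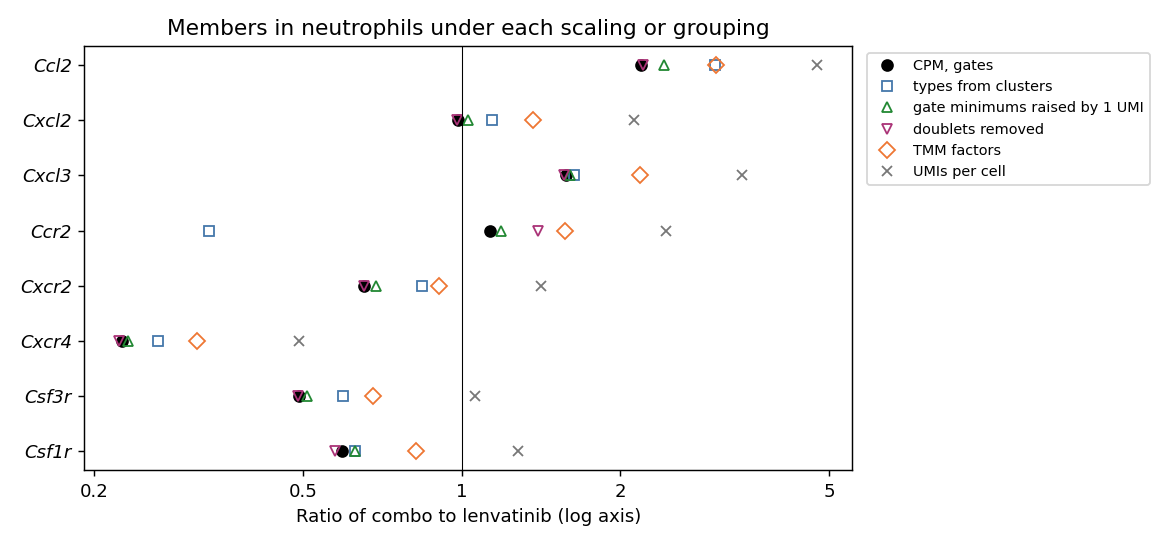
Ratio of combo to lenvatinib (log axis) of 8 members in neutrophils, by CPM in gated cells (filled circles) and under 5 other groupings or scalings (open symbols and crosses). Ccl7 is left out for its 1 and 6 UMIs. All symbols of Cxcr4 lie left of 1 and all of Ccl2 and Cxcl3 right of 1, while those of Cxcl2, Cxcr2, Ccr2, Csf3r and Csf1r lie on both sides.

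Other genes of leukocyte recruitment were read from a list of 42 chemokines, chemoattractant receptors, colony-stimulating factor genes and adhesion genes. In neutrophils 23 of them reached 20 CPM, of which 0 were higher under combo by the 2-fold rule, 7 were lower and 16 were neither. Over all 4350 genes tested in neutrophils, 79 were higher and 542 lower, so that 14.3% were called. The median ratio of the 23 was 0.697, beside the median log2 ratio of -0.40 over all genes. The 7 lower genes included the ligands Ccl3, at 1863 and 376 CPM, and Ccl4, at 2112 and 412 CPM, both chemoattractants of leukocytes. They also included the receptor Ccr1, at 865 and 389 CPM, the non-signaling chemerin receptor Ccrl2, at 1657 and 801 CPM, and Ptafr, the receptor of platelet-activating factor, at 679 and 273 CPM. Csf1 and the integrin gene Itga4 made up the 7. With TMM factors 3 of the 7, Ccl3, Ccl4 and Csf1, stayed past 2-fold, and Ccr1, Ccrl2, Ptafr and Itga4 did not. Per cell, without scaling, Ccrl2 and Ccr1 were at ratios of 1.05 and 0.972, and Ccl3 and Ccl4 at 0.437 and 0.422. Ccl6, at 743 and 573 CPM, the complement receptor C5ar1, at 557 and 373 CPM, and the integrin gene Itgam, at 589 and 437 CPM, did not reach the rule.

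In monocytes 23 listed genes were tested, 3 higher and 1 lower, with a median ratio of 1.16, where the rule called 4.2% of all genes. The higher genes were the CXCR2 ligand Cxcl1, C5ar1, at 49.7 and 125 CPM, and the leukotriene B4 receptor Ltb4r1, and the lower gene was Cxcl16. Ccl3 and Ccl4 had 330 and 205 CPM and 801 and 446 CPM in monocytes, lower as in neutrophils but within 2-fold. In dendritic cells, where 19 were tested, Ccl3 (66.2 and 162 CPM) and Ccl4 (809 and 1677 CPM) were higher instead, and Ccl5 and Cxcl16 were lower. Of all genes tested in dendritic cells, 2.48% were called. The macrophage gates, unlike in makeup, had 8 higher and 8 lower of 26, where 21% of all genes were called. In T cells none of 10 and in NK cells none of 11 passed the rule, beside 1.75% and 1.67% of all genes. Ccl5, an effector chemokine of these cells, had 4275 and 6769 CPM in T cells. Mif, a ligand that binds CXCR2 and CXCR4 beside CD74, had 332 and 379 CPM in neutrophils and 484 and 567 CPM in T cells.

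The genes whose level over 9 types in both libraries was most like that of each member are given as a description, as Pearson's r of log2(CPM + 1) over 18 profiles that share 2 libraries. Ccl2 was closest to Clec4a3 (r = 0.9709), Fn1 and F13a1, the gene of a coagulation factor subunit, and Ccl7 to C1qb (r = 0.8971), Mertk and Gpnmb. The 9 types leave out mixed and ungated cells, which held 19.6% and 51.8% of the Ccl7 UMIs under lenvatinib. Cxcl2 was closest to the lactate transporter gene Slc16a3 (r = 0.9824), C5ar1 and Cebpb, and Cxcl3 to the interleukin gene Il1f9 (r = 0.9773), Igfbp6 and Arg2. Cxcr2 was closest to the histidine decarboxylase gene Hdc (r = 0.9667), Srgn and 2310001H17Rik, and Csf3r to the formyl peptide receptor gene Fpr1 (r = 0.9626), Clec4d and Clec5a. Cxcr4 was closest to Nfkbid (r = 0.8755), Cd274, which encodes PD-L1, and Tgif1. Ccr2 had its nearest profiles in Vps53 (r = 0.8874), Gas7 and Elmo2, and Csf1r in Cd302 (r = 0.9850), Clec4a3 and Plin2. Among the members, Cxcl2 and Csf3r had r = 0.9366, Ccl2 and Csf1r 0.9393, Cxcl2 and Cxcl3 0.8804, and Cxcr4 and Csf3r 0.4562. Csf3r and Csf1r are gate genes, so their profiles are partly fixed by the typing. Nothing is read from the r values or nearest genes of these members.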

How the data were processed

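The authors demultiplexed and aligned the reads to mm10 and deposited unnormalized counts of UMIs for each gene in each barcode. The methods and the processing notes name Cell Ranger version 5.0.1, and the file header names 6.0.1. The deposited counts were used unscaled, and every barcode had at least 500 UMIs. The study's filter (at most 6000 genes and 25% mitochondrial UMIs) removed 308 and 376 cells.

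Gates required at least 1 UMI (Cd3e, Ncr1, Csf1r, Flt3, Ptgs2) or 2 (Cd79a, Mcpt8, C1qa, Csf3r). T came before B and NK. Among myeloid gates basophil came first, then macrophage where C1qa exceeded Csf3r, neutrophil where Csf3r exceeded Csf1r, monocyte where Csf1r exceeded Flt3, then dendritic, and ties left over counted as mixed. UMIs were summed per type and library (Python 3.11.15, numpy 2.4.6, scipy 1.17.1, pandas 2.3.3). Intervals are 95%, exact Poisson for counts and Clopper-Pearson for shares. Cells are not replicates and 1 library per group allows no p-value. Thinning drew 2000 UMIs per cell without replacement. Shallower cells were left out, 140 and 59 neutrophils and 44 and 79 monocytes among them.

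Alternatives used other cell filters, gates raised by 1 UMI, other totals, TMM factors from edgeR 4.0.16 in R 4.3.3, other thinning depths, Scrublet and clusters in scanpy 1.11.5 (3000 variable genes without the members, 30 components, 15 neighbors, resolution 1). Scrublet called 4.46% and 2.76% of cells, which were kept in the values reported. Scaling by cell, the Cpa3 and Fcer1a gate and leaving out the 2 cells with most UMIs were chosen after seeing the data. So were the splits of neutrophils by granule genes, of monocytes by Ly6c2, of T cells by Cd8a and Cd4, and of dendritic cells by marker genes. Members, lists and gates were chosen with earlier results of these data known. All 9 members are named, the 10 listed genes with the highest CPM are given with values, and 3 most similar genes per member. Summing and calling were tested on data simulated from lenvatinib neutrophils, with equal totals and counting error only. Of 200 genes of at least 20 CPM changed 4-fold, 182 were recovered among 32285 genes simulated. The unlike totals, depths and cell makeup of the real libraries were not part of that test. Promoter windows were in the RefSeq table for 6 members.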

Additional observations from a re-analysis of the deposited data

How the results depend on the processing

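Of 518 ratios of a member under an alternative, 398 stayed within the counting range of the reported value, 104 left it, and 16 changed direction where the reported range excluded 1. Among the 104 are ratios whose range included 1 and that crossed it, such as Ccr2 in neutrophils (1.13, and 0.332 by clusters). Cxcr4 in neutrophils was lower under combo in all alternatives, at 0.265 with types from clusters, 0.314 with TMM factors and 0.490 as UMIs per cell. Cxcl2 in neutrophils, at 0.984, was 0.967 with the stricter cell filter, 1.03 with gates raised by 1 UMI, 1.05 without a cell filter, 1.14 by clusters, 1.36 with TMM factors and 2.13 per cell. In the macrophage gate it changed direction by clusters (0.488). Cxcr2 in neutrophils was 0.842 by clusters, 0.906 with TMM factors and 1.41 per cell, in Ptgs2+ cells 1.34 per cell, and in Ptgs2- cells 1.23 by clusters, 1.32 with TMM factors and 1.68 per cell. Per cell, Csf3r was 1.06, 1.10 and 1.15 in all, Ptgs2+ and Ptgs2- neutrophils, and Csf1r 1.28 and 1.31 in all and Ptgs2+ neutrophils. TMM factors raised ratios by 0.47 on the log2 scale in all neutrophils, by 0.33 in Ptgs2+ and by 0.63 in Ptgs2- cells, and the per-cell values follow the deeper combo neutrophils by construction. Ccl2 in monocytes was 1.25 by clusters, 2.04 with raised gates and 2.06 per cell, and Ccr2 in NK cells 0.671 per cell.

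The share of Ccl2 UMIs in monocytes was 54.0% under lenvatinib and 79.5% under combo by clusters, 35.9% and 43.8% without the 2 top cells, 21.0% under lenvatinib with raised gates, and 49.0% under combo without doublets. The share of Cxcl2 UMIs in neutrophils was 86.6% and 80.9% by clusters, 67.0% and 67.6% without doublets, 59.9% and 63.2% with raised gates, 61.3% and 66.3% with the stricter filter, 64.5% under combo without a filter and 60.4% under lenvatinib without the 2 top cells. Higher under combo by gates, it was lower by clusters. The share of neutrophils with a Cxcr4 UMI was 68.0% and 50.03% without thinning and 43.0% and 16.6% at 1000 UMIs, and with a Cxcr2 UMI 79.4% and 85.6%, and 53.5% and 44.6%. Without thinning the order for Cxcr2 turned. Genes past 2-fold in neutrophils numbered 621, 357 with TMM factors and 1335 at a mean of at least 5 CPM.

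No paired analysis was possible because each treatment had 1 library without replicate numbers. Depth limits Ccl7 most, with 212 to 255 UMIs per library, and the 13 and 18 basophils. A difference between the libraries holds treatment, mice and handling together, and the cause of the changes of direction under clusters was not tested.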

Other observations

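The basophil gate held few cells, and the direction of its Cxcl2 did not hold by clusters. Its 13 cells under lenvatinib had 1226 CPM (1002 to 1486) of Cxcl2, 259 CPM (163 to 393) of Cxcr2 and 130 CPM (64.7 to 232) of Ccr2, on 104, 22 and 11 UMIs. The 18 basophils under combo had 220.5 CPM (179 to 268) of Cxcl2 and 26.5 CPM (13.7 to 46.2) of Cxcr2, and 1 UMI of Ccr2. At 2000 UMIs per cell, 38.5% (13.9 to 68.4) of basophils under lenvatinib and 11.1% (1.37 to 34.7) under combo had a Cxcl2 UMI, and these intervals overlap. The cluster that held all gated basophils, with 94 and 162 cells and with Cma1, Mcpt4 and Tpsb2 beside Mcpt8 among its leading genes, had Cxcl2 in the other direction, at 318 and 938 CPM. It had 35.9 and 18.2 CPM of Cxcr2 and 41.0 and 24.1 CPM of Ccr2, both lower under combo as in the gate. The thinned shares of the gate were the same for Cxcr2 as for Cxcl2, and the median basophil had 6804 UMIs under lenvatinib and 26129 under combo.

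The genes in what follows were singled out after their values were seen. Cxcl1, another ligand of CXCR2, had 10.0 CPM in monocytes under lenvatinib and 47.0 CPM under combo, and 48.7 and 65.8 CPM in neutrophils. Cxcl5, Cxcl12 and Il34 had at most 0.641 CPM in monocytes, macrophages, neutrophils, dendritic, T and NK cells. CXCL12 is the known ligand of CXCR4, and the sort kept CD45+ cells only. Csf3, the ligand of CSF3R, had 3.88 CPM in monocytes under combo and no UMI there under lenvatinib. Csf1, the ligand of CSF1R, had 327 CPM in neutrophils under lenvatinib and 41.4 CPM under combo.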
